A study of Hordeum vulgare with 12 samples.

Results

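The genes described here are 4 WRKY transcription factor genes of barley that lie as 2 neighbouring pairs on chromosomes 5H and 7H, among 63658 genes counted in crowns of auxin-treated seedlings. On 5H the first is HORVU.MOREX.r2.5HG0400740.1 and its neighbour HORVU.MOREX.r2.5HG0400750.1. On 7H the first is HORVU.MOREX.r2.7HG0616250.1 and its neighbour HORVU.MOREX.r2.7HG0616260.1. The prefix HORVU.MOREX.r2 and the ending are left off below where a gene recurs. The 4 genes were chosen by name, as pairs that stood high 30 min or 1 h after auxin in these same libraries. Differences of 30 min and 1 h from 0 h are therefore a description, and nothing is read from the counts of calls given for them.

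The seedlings were of the cultivar Golden Promise and came from a system for inducing crown roots, the roots that cereals form at the shoot base, by auxin. All 4 groups first received 50 µM NPA, which blocks the polar transport of auxin, during 3 days in the cold, 3 days of germination and 3 days in hydroponic solution. The 0 h group was taken at the end of this period, before any auxin. The 30 min, 1 h and 3 h groups were taken that long after the solution was changed to one with 50 µM 1-NAA, a synthetic auxin. Each group has 3 libraries, given as independent biological replicates, and each library is a pool of 5 crowns, the 2 mm junction of roots and stem. There were no crowns without 1-NAA at 30 min, 1 h or 3 h. The auxin, the end of NPA, the handling and the time elapsed cannot be told apart in any comparison with 0 h.

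WRKY proteins are a large plant family of transcription factors, named after a run of amino acids in their DNA-binding domain, and most bind W box elements in promoters. Arabidopsis WRKY40, with its close relatives WRKY18 and WRKY60, is known for fast induction by wounding and by microbial molecules and mostly holds defence genes back. These proteins can bind each other and VQ motif proteins. In Arabidopsis the mitogen-activated protein (MAP) kinase cascades and the jasmonate pathway, whose JAZ proteins are repressors, act in the same responses.

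HORVU.MOREX.r2.5HG0400740.1 lies on chromosome 5H from 452770168 to 452771471 and HORVU.MOREX.r2.5HG0400750.1 from 452777224 to 452779164, in the coordinates of the deposited files. Both are on the plus strand, 5752 bases apart, and both have a listed length of 996 bases. HORVU.MOREX.r2.7HG0616250.1 lies on chromosome 7H from 616777574 to 616778642 on the plus strand, with a length of 960 bases. HORVU.MOREX.r2.7HG0616260.1 lies from 616808151 to 616809448 on the minus strand, with a length of 1179 bases. The 7H genes face each other across 29508 bases. The files list 0 genes between the members of either pair.

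In the authors' deposited table, both 5H genes and HORVU.MOREX.r2.7HG0616260.1 have Arabidopsis WRKY40 (AT1G80840.1) as first homolog and AT4G31800.1, described as WRKY-like, as second. HORVU.MOREX.r2.7HG0616250.1 has no Arabidopsis homolog there, and shares both of its listed rice homologs with its neighbour. One of these rice genes, OS09T0417600-01, is also the first rice homolog of both 5H genes. The genes may thus be near-copies, and how reads matching several of them were counted is not given in the sources used here. A split of reads within a pair is uncertain for that reason. In crowns, which hold many cell types, fewer cells of a type and less RNA per cell cannot be told apart.

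The 12 libraries held 16093892 to 34019480 counts assigned to genes. Reads assigned to genes made up 71.9% to 78.4% of the total in 9 libraries, but 56.0% to 66.4% in the first replicates of 3 times (0 h, 30 min and 3 h). Levels are CPM, counts scaled to library size with TMM, a correction for library composition, and 3 counts in a library correspond to 0.0849 to 0.193 CPM. Of the 4 genes, 4 passed the filter on low counts, as did 24920 genes in all. Summed CPM of 195 green tissue markers (chlorophyll-binding and photosystem genes, 68 of them at 0 in every library) was 4490 to 5209 at 3 h and 5532 to 8410 at the earlier times. Of 6 xylem and phloem markers, 2 were at 0, and the sum was 36.8 to 47.6 CPM at 3 h and 29.1 to 35.5 CPM before. Summed markers of meristem (KNOX and BEL genes, 25 of 33 with a read) spanned 414 to 534 CPM. Root hair markers (9 of 16 with a read) spanned 95.8 to 127 CPM, and grain markers (173 of 223 with a read) 4396 to 5536 CPM.

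The genes of the 5H pair stood highest at 1 h and lowest at 3 h. HORVU.MOREX.r2.5HG0400740.1 was at 2.38, 2.55 and 2.60 CPM in replicates 1, 2 and 3 of 0 h and at 5.77, 5.73 and 5.41 CPM at 30 min. It was at 8.28, 8.27 and 10.1 CPM at 1 h and at 1.75, 1.5 and 1.86 CPM at 3 h. No library of one time overlapped another time, and the order was 1 h, 30 min, 0 h, 3 h. The means were 2.51 ± 0.116 CPM (SD, n = 3) at 0 h, 5.64 ± 0.193 CPM at 30 min, 8.89 ± 1.07 CPM at 1 h and 1.70 ± 0.182 CPM at 3 h.

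HORVU.MOREX.r2.5HG0400750.1 was the most abundant of the 4 genes. It was at 16.6, 17.7 and 10.4 CPM at 0 h and at 21.5, 31.0 and 28.2 CPM at 30 min. It reached 49.9, 37.4 and 34.2 CPM at 1 h and was at 15.1, 7.71 and 8.99 CPM at 3 h. The order of the times was that of its neighbour, but 0 h and 3 h overlapped, through replicate 3 of 0 h and replicate 1 of 3 h. The means were 14.9 ± 3.93 CPM (SD, n = 3) at 0 h, 26.9 ± 4.86 CPM at 30 min, 40.5 ± 8.26 CPM at 1 h and 10.6 ± 3.95 CPM at 3 h.

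The genes of the 7H pair stood highest at 30 min. HORVU.MOREX.r2.7HG0616250.1 was at 0.965, 0.266 and 0.821 CPM at 0 h, which are 15, 7 and 29 counts. The counting interval of the lowest of these, an exact Poisson interval at 95%, was 0.107 to 0.549 CPM, and it covers counting error alone. At 30 min the gene was at 3.72, 7.47 and 11.2 CPM, every library above every library of the other times. It was at 2.19, 1.10 and 3.28 CPM at 1 h and at 2.16, 2.15 and 0.825 CPM at 3 h, and these times overlapped. The means were 0.684 ± 0.369 CPM (SD, n = 3) at 0 h, 7.48 ± 3.77 CPM at 30 min, 2.19 ± 1.09 CPM at 1 h and 1.71 ± 0.768 CPM at 3 h. It was the most variable of the 4 genes: within a time, the highest library was 2.62 to 3.62 times the lowest.

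HORVU.MOREX.r2.7HG0616260.1 had a high level at 30 min and again at 3 h. It was at 2.70, 1.37 and 3.45 CPM at 0 h and at 6.15, 11.3 and 11.2 CPM at 30 min. It was at 5.95, 2.31 and 4.27 CPM at 1 h and at 7.32, 7.38 and 8.58 CPM at 3 h. Every library of 30 min and of 3 h stood above every library of 0 h and of 1 h, while 30 min overlapped 3 h and 1 h overlapped 0 h. The means were 2.51 ± 1.05 CPM (SD, n = 3) at 0 h, 9.56 ± 2.95 CPM at 30 min, 4.18 ± 1.83 CPM at 1 h and 7.76 ± 0.712 CPM at 3 h.

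**Figure D1:**
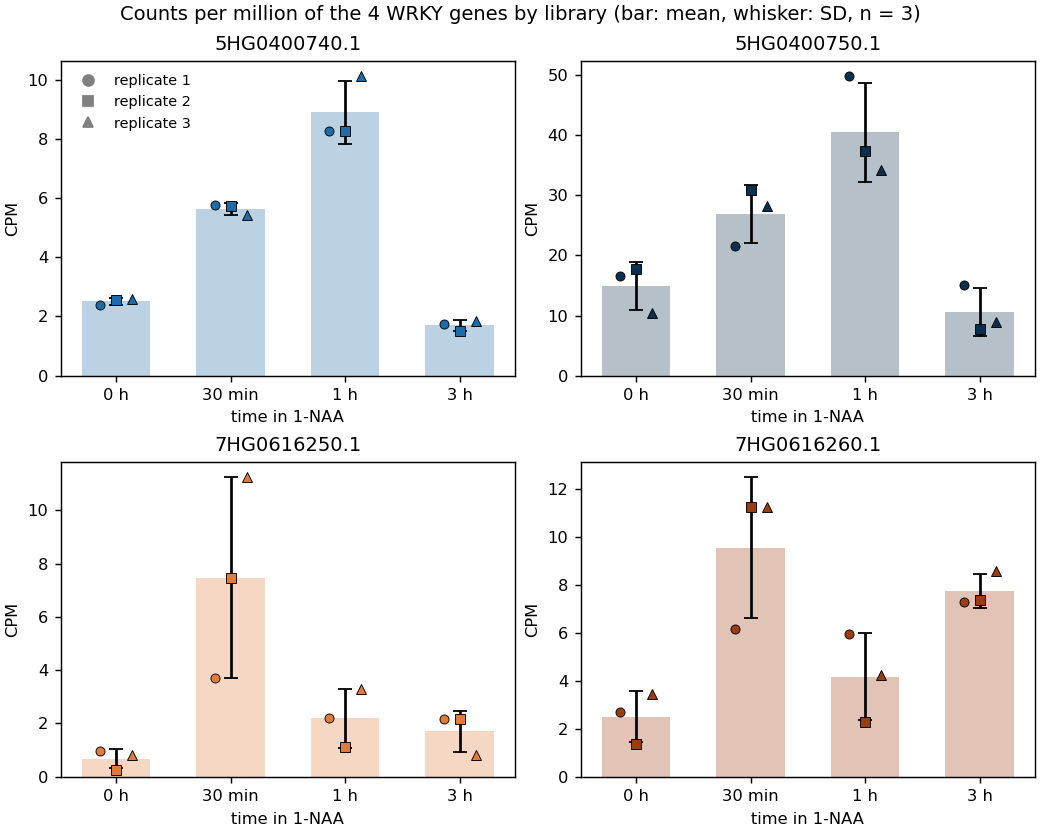
CPM (y axis) of the 4 genes in the 12 libraries by time in 1-NAA (x axis), with bars for the mean of 3 libraries, whiskers for the SD and 1 symbol per replicate number. The 5H genes (top) stand highest at 1 h, with means of 8.89 and 40.5 CPM, and the 7H genes (bottom) at 30 min, with means of 7.48 and 9.56 CPM.

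Per kilobase of listed length, the scale on which different genes can be compared, the order of the 4 genes was not the same at every time. At 0 h the levels were 14.97, 2.52, 2.13 and 0.713 CPM per kilobase for 5HG0400750, 5HG0400740, 7HG0616260 and 7HG0616250. At 30 min both 7H genes, at 7.79 ± 3.92 and 8.11 ± 2.5 CPM per kilobase (SD, n = 3), had means above the 5.66 ± 0.194 of 5HG0400740, within the spread of the libraries. At 1 h 5HG0400740 was at 8.93 ± 1.07 CPM per kilobase and the 7H genes at 2.28 ± 1.14 and 3.54 ± 1.55. Among 85 tested WRKY genes ranked by this level, 5HG0400750 was 22nd at 0 h, 14th at 30 min, 6th at 1 h and 30th at 3 h. 7HG0616250 was 70th at 0 h, 40th at 30 min and 57th at 1 h and at 3 h.

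At 30 min against 0 h, where the choice of the genes fixes the direction, the log2 fold changes were 1.16 ± 0.17 (SE) for 5HG0400740 and 0.86 ± 0.28 for 5HG0400750. They were 3.47 ± 0.61 for 7HG0616250 and 1.93 ± 0.40 for 7HG0616260. All 3 libraries of 30 min stood above all 3 of 0 h in 4 of 4 genes, as they did in 4.68% of all tested genes. With a call set at an edgeR adjusted p under 0.05, 0 of the 4 genes were called higher, against 0.00401% of all genes, which is 1 gene.

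At 1 h against 0 h, also used in the choice, the log2 fold changes were 1.82 ± 0.17 (SE) for 5HG0400740 and 1.45 ± 0.28 for 5HG0400750. They were 1.70 ± 0.60 for 7HG0616250 and 0.73 ± 0.39 for 7HG0616260. Libraries did not overlap for 3 of 4 genes, all but 7HG0616260, against 7.16% of all tested genes. The 24 genes called higher by edgeR are 0.0963% of those tested and include 1 of the 4, 5HG0400740. Leaving out single libraries gave 3 to 27 calls in either direction. 5HG0400740 was among them in 12 of 12 fits, which is no support, since this comparison was used to choose it. With the 4 libraries of replicate 1 left out 1 gene was called, and it was none of the 4.

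At 1 h against 30 min the estimates of the pairs had opposite signs, but no gene in the table passed the test. The 5H genes stood higher at 1 h by log2 fold changes of 0.66 ± 0.17 (SE) and 0.59 ± 0.27. The 7H genes stood lower, by -1.77 ± 0.55 for 7HG0616250 and -1.20 ± 0.38 for 7HG0616260. The edgeR adjusted p was 0.9999 for each of the 4. All 3 libraries were higher for the 2 genes of 5H and lower for the 2 genes of 7H, against 4.37% and 4.32% of all genes. Over all genes edgeR called 0 (0%), with 736 at an unadjusted p under 0.05, and DESeq2 called 23, none of them among the 4. Both times had been used to choose the genes, so the values of the 4 here are a description and no test.

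The 3 h libraries are the only ones that played no part in the choice. The comparisons with 3 h still share the earlier libraries with it, and a gene picked for high values at 30 min or 1 h is prone to lie lower at another time. The sums of green tissue markers were also lower at 3 h and those of xylem and phloem markers higher, as given above, and their part in these differences was not tested.

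Both 5H genes fell from 1 h to 3 h. 5HG0400740 fell by 2.38 ± 0.18 (SE) on the log2 scale, or 5.22-fold (edgeR adjusted p = 0.000118), lower in all 3 libraries. 5HG0400750 fell by 1.94 ± 0.29 on the log2 scale, or 3.83-fold (edgeR adjusted p = 0.0044), also in all 3. The 7H genes did not pass: 7HG0616250 was at -0.36 ± 0.55 (edgeR adjusted p = 0.822) and 7HG0616260 at 0.90 ± 0.38 (adjusted p = 0.297). All 3 libraries of 7HG0616260 were higher at 3 h, as they were in 10.7% of all genes. The 2 genes called lower compare with 0.887% of all genes called lower, and libraries that were all lower, in the same 2 genes, with 10.5%. Leaving out any 1 of the 12 libraries kept both calls, while the estimate for 7HG0616250 turned to 0.07 without replicate 3 of 1 h.

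From 30 min to 3 h the 5H genes also fell. 5HG0400740 fell by 1.72 ± 0.18 (SE) on the log2 scale, or 3.31-fold (edgeR adjusted p = 0.00037). 5HG0400750 fell by 1.35 ± 0.28, or 2.54-fold (edgeR adjusted p = 0.0275). The call for 5HG0400750 was lost without replicate 2 or 3 of 30 min (edgeR adjusted p = 0.106 and 0.0659), without replicate 2 or 3 of 3 h (0.114 and 0.127) and in a fit of these times alone (0.0952).

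Over the same interval neither 7H gene passed. 7HG0616250 was at -2.13 ± 0.56 on the log2 scale, 4.38-fold lower (edgeR adjusted p = 0.0742), with all 3 libraries lower. Blocked by replicate number, the value was -2.04 ± 0.52 and passed (adjusted p = 0.042), and DESeq2 gave an adjusted p of 0.0053. Those were the only 2 of 19 alternatives that called 7HG0616250. Of 12 fits without 1 library, 0 called it (edgeR adjusted p = 0.0532 to 0.247). In the authors' deposited table it stands at -2.12 with an adjusted p of 0.00449, a value from the same counts and no further support. 7HG0616260 was at -0.30 ± 0.38 (edgeR adjusted p = 0.881), and its libraries at the 2 times overlapped. The 2 genes called lower compare with 1.16% of all genes, and the 3 of 4 genes with all libraries lower with 8.03%.

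Between 0 h and 3 h edgeR called 0 of the 4 genes, against 2.48% of all genes in either direction. An edgeR unadjusted p under 0.05 was reached by 3 of the 4, and by 2596 of all 24920 genes. DESeq2 called 1 of the 4, and 1112 of all genes. All 3 libraries were lower in 1 of the 4 genes and higher in 1, against 6.63% and 6.66% of all genes. The 5H genes were at or below their starting level: 5HG0400740 was at -0.56 ± 0.18 (SE, edgeR adjusted p = 0.177), with all 3 libraries lower, and 5HG0400750 at -0.49 ± 0.28 (adjusted p = 0.687), with overlap. The 7H genes stayed above theirs in the means. 7HG0616250 was at 1.34 ± 0.60 (edgeR adjusted p = 0.46), and the 3 h and 0 h libraries overlapped.

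HORVU.MOREX.r2.7HG0616260.1 was closest to a call at 3 h against 0 h, at 1.62 ± 0.39 (SE) on the log2 scale, or 3.08-fold, higher in all 3 libraries (edgeR adjusted p = 0.0573). Blocked by replicate number it passed, at 1.67 ± 0.36 (adjusted p = 0.0189). It also passed with DESeq2 (adjusted p = 0.00218), without a filter on low counts (edgeR adjusted p = 0.0381), and without replicate 1 of 30 min (0.0465) or replicate 2 of 1 h (0.0385). Those were the only 5 of 19 alternatives that called the gene, among them 2 of 12 fits without 1 library. The gene did not pass with limma-voom (adjusted p = 0.0558) or with size factors of DESeq2 in edgeR (adjusted p = 0.0553). Nor did it pass in an edgeR fit of these times alone (adjusted p = 0.077) or with the 4 libraries of replicate 1 left out (0.12). In the authors' deposited table it stands at 1.63 with an adjusted p of 0.00214. That value rests on the same counts as the DESeq2 fit and is no further support. Over all alternatives that leave out 1 library, the edgeR adjusted p ran from 0.0385 to 0.182.

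In the ratio of the 5H genes to each other, the libraries of all times overlapped. 5HG0400750 stood at 4.00 to 6.97 times the CPM of 5HG0400740 at 0 h, 3.73 to 5.41 times at 30 min, 3.38 to 6.02 times at 1 h and 4.84 to 8.63 times at 3 h. The mean log2 ratios were 2.53 ± 0.46 (SD, n = 3), 2.24 ± 0.29, 2.18 ± 0.42 and 2.58 ± 0.46. The largest tested difference was 0.41 (3 h against 1 h, two-sided exact permutation p = 0.4, smallest possible 0.1). Between libraries of the same replicate number that difference was 0.52, 0.18 and 0.52, higher at 3 h in 3 of 3 pairs. In the other 3 tested comparisons of this ratio the signs were mixed. Among them is 1 h against 30 min, a description only, since both times were used to choose the genes.

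The ratio of the 7H genes to each other was lowest at 30 min. 7HG0616260 was at 2.80 to 5.14 times the CPM of 7HG0616250 at 0 h, 1.00 to 1.66 times at 30 min, 1.3 to 2.72 times at 1 h and 3.38 to 10.4 times at 3 h. The mean log2 ratio was 1.97 ± 0.45 (SD, n = 3) at 0 h, 0.44 ± 0.39 at 30 min, 0.96 ± 0.54 at 1 h and 2.31 ± 0.93 at 3 h. At 3 h it was higher than at 30 min by 1.86 and than at 1 h by 1.34, with no overlap in either case. The two-sided exact permutation p was 0.1 for both, the smallest that 3 against 3 libraries allow, and 0.24 after Benjamini-Hochberg adjustment over 12 tests of ratios. Between libraries of the same replicate number, 3 h stood above 30 min by 1.03, 1.18 and 3.38 and above 1 h by 0.31, 0.71 and 3.00. The largest of each is replicate 3, where 7HG0616250 had 20 counts at 3 h.

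The ratio between the pairs was high at 0 h and 1 h and low at 30 min and 3 h. The summed CPM of the 5H pair was 3.05 to 12.4 times that of the 7H pair at 0 h, 1.49 to 2.76 times at 30 min, 5.87 to 13.4 times at 1 h and 0.966 to 1.78 times at 3 h. The mean log2 ratio was 2.54 ± 1.02 (SD, n = 3), 1.00 ± 0.45, 3.05 ± 0.62 and 0.33 ± 0.45. It was higher at 1 h than at 30 min by 2.04. Both of those times were used to choose the genes, so nothing is read from the permutation test of that difference, which is among the 12. At 3 h the ratio stood at -2.72 from 1 h and -2.21 from 0 h, in both cases without overlap. Both had a two-sided exact permutation p of 0.1 (adjusted 0.24), the smallest possible, and both share libraries used in the choice.

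**Figure D2:**
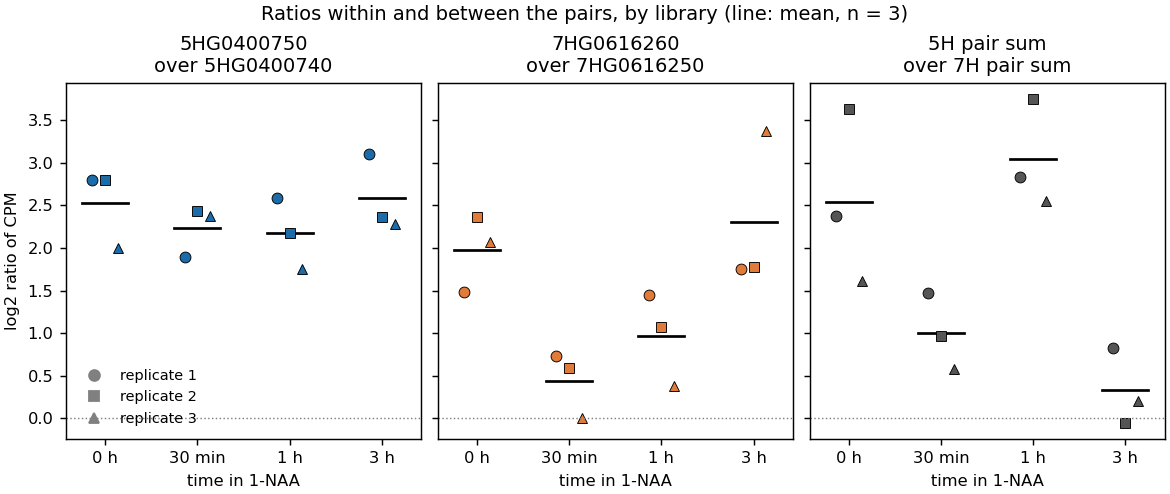
Log2 ratio of CPM (y axis) by time in 1-NAA (x axis) within the 5H pair, within the 7H pair and between the summed pairs, with 1 symbol per library and a line at the mean of 3. The 5H ratio stays between 1.76 and 3.11 in all libraries, while the ratio between pairs ranges from -0.05 at 3 h to 3.75 at 1 h.

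Over the 12 libraries, levels of the 5H genes on a log2 scale had a Pearson r of 0.92 with each other, and the 7H genes 0.79. Across pairs r was between -0.04 and 0.45. The libraries share their times, and with the mean of each time taken out r was -0.10 within the 5H pair and 0.69 within the 7H pair. Within a time, replicates of the 7H genes thus tended to deviate together. These values describe 12 libraries in 4 groups and were not tested.

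The neighbours of the pairs on the chromosome were not called in any of the 6 comparisons. Upstream of the 5H pair lies another WRKY gene, HORVU.MOREX.r2.5HG0400720.1, whose first listed homolog is AT4G31800.1 and whose second is WRKY40. It was at 6.59 ± 2.84 CPM (SD, n = 3) at 0 h, 7.65 ± 1.84 at 30 min, 8.60 ± 2.02 at 1 h and 3.70 ± 3.05 at 3 h. At 3 h its libraries were at 7.22, 1.83 and 2.06 CPM, and only replicate 1 lay within the range of the earlier times. Against 1 h its log2 fold change at 3 h was -1.22 ± 0.49 (SE, edgeR adjusted p = 0.266), and leaving out replicate 1 of 3 h gave -2.14 (edgeR adjusted p = 0.0185).

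The other neighbours of the 5H pair are a transposon gene (HORVU.MOREX.r2.5HG0400730.1) with 0 reads, a Fes1-like exchange factor of Hsp70 chaperones (HORVU.MOREX.r2.5HG0400760.1) at 0.448 to 0.78 CPM and a basic helix-loop-helix gene (HORVU.MOREX.r2.5HG0400770.1) at 13.1 to 16.5 CPM in the means. Beside the 7H pair, a pumilio-like gene (HORVU.MOREX.r2.7HG0616230.1) was at 4.21 to 7.78 CPM and a POLAR-like gene (HORVU.MOREX.r2.7HG0616280.1) at 3.26 to 4.94 CPM. A lectin gene next to them had 0 reads, and a gene described as a DNA repair helicase had 10 in all and was not tested.

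Besides the members and 5HG0400720, the table lists WRKY40 as first or second Arabidopsis homolog for HORVU.MOREX.r2.6HG0471210.1, on chromosome 6H. Its libraries were at 9.85, 12.5 and 25.6 CPM at 0 h, 36.4, 84.7 and 34.9 CPM at 30 min, 37.3, 33.3 and 41.5 CPM at 1 h and 25.1, 19.0 and 27.9 CPM at 3 h. Like the 7H genes it had its highest mean at 30 min, with replicate 2 far above the other libraries of that time. The log2 fold change of 30 min against 0 h was 1.69 ± 0.39 (SE, edgeR adjusted p = 0.432), and DESeq2 called it (adjusted p = 0.0105). At 3 h against 30 min it was -1.11 ± 0.38 (edgeR adjusted p = 0.2).

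**Figure D3:**
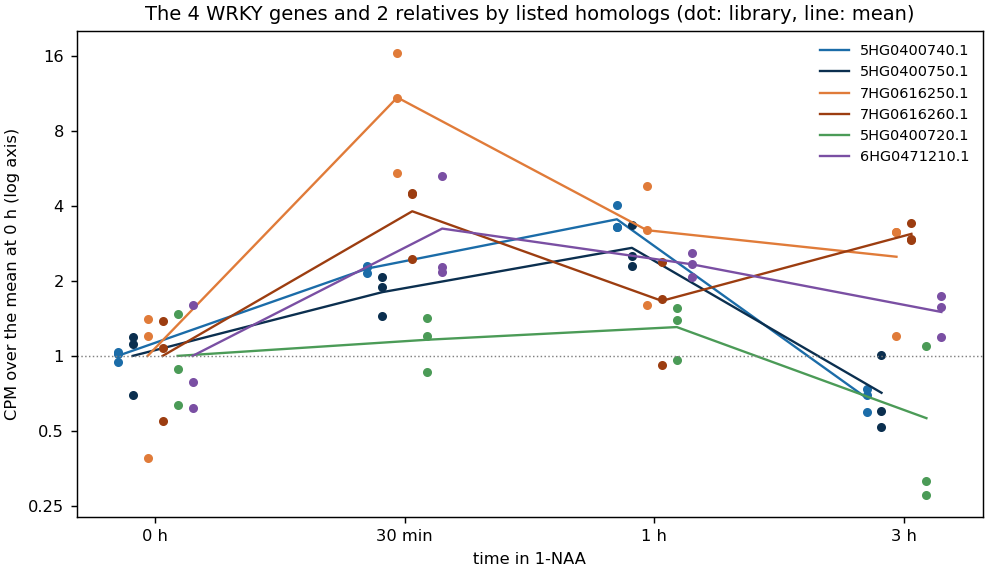
CPM divided by the gene's own mean at 0 h (y axis, log scale) by time in 1-NAA (x axis) for the 4 genes and 2 relatives by listed homologs, with a dot per library and a line through the means. The 5H genes (blue) peak at 1 h and end below 1, and HORVU.MOREX.r2.5HG0400720.1 (green) has means from 6.59 CPM at 0 h to 3.70 CPM at 3 h.

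In the WRKY family as described in the deposited table, 119 genes were listed and 85 tested, 81 of them outside the pairs. Of these 81, 3 rose and 0 fell at 3 h against 0 h, where 1.68% of all genes rose and 199 of 24920 fell. At 3 h against 30 min 2 rose and 1 fell, where 1.52% of all genes rose and 1.16% fell. At 3 h against 1 h 3 rose and 1 fell, where 1.19% rose and 0.887% fell. Blocked by replicate number, 1, 4 and 5 of the 81 fell in these 3 comparisons, against 531, 834 and 873 of all 24920 genes. In the other 3 comparisons 0 of the 81 passed edgeR. DESeq2 called 1 higher at 30 min against 0 h, and 93 of all 24920 genes. The median log2 fold change of the 81 was 0.20 at 30 min and 0.19 at 1 h against 0 h and 0.02 at 3 h, against medians between -0.01 and 0.00 over all genes.

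Among the WRKY genes named for their small p, HORVU.MOREX.r2.1HG0057170.1, whose Arabidopsis homolog WRKY70 acts in salicylate signalling, was lower at 3 h as the 5H genes were. It was at 9.13 ± 1.72, 14.9 ± 1.43, 16.8 ± 1.18 and 6.03 ± 3.11 CPM (SD, n = 3) from 0 h to 3 h. It fell by 1.48 ± 0.29 (SE) on the log2 scale from 1 h to 3 h (edgeR adjusted p = 0.0223), a call that 7 of 12 fits without 1 library kept. HORVU.MOREX.r2.3HG0252360.1 rose to 6.92 ± 0.819 CPM at 3 h, 2.43 ± 0.24 above 0 h (edgeR adjusted p = 0.000186). HORVU.MOREX.r2.6HG0497280.1 rose to 18.0 ± 0.837 CPM, 2.42 ± 0.31 above 0 h (edgeR adjusted p = 0.00129). HORVU.MOREX.r2.2HG0153650.1 rose by 1.44 ± 0.32 (edgeR adjusted p = 0.036), and 5 of 12 fits without 1 library kept the call.

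Ranked by log2 fold change among the 85 WRKY genes, 5HG0400740 was the lowest and 5HG0400750 the third lowest at 3 h against 1 h. 7HG0616260 was the third highest at 3 h against 0 h and 7HG0616250 the 5th. From 30 min to 1 h, 7HG0616250 was the lowest of the family and 7HG0616260 the third lowest, while the 5H genes were the 4th and 5th highest. Both of these times were used to choose the genes, so extreme ranks there follow from the choice, and the ranks against 3 h share its libraries. At 3 h against 30 min, 7HG0616250, 5HG0400740 and 5HG0400750 were 2nd, 3rd and 5th from the lowest and 7HG0616260 was 38th.

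**Figure D4:**
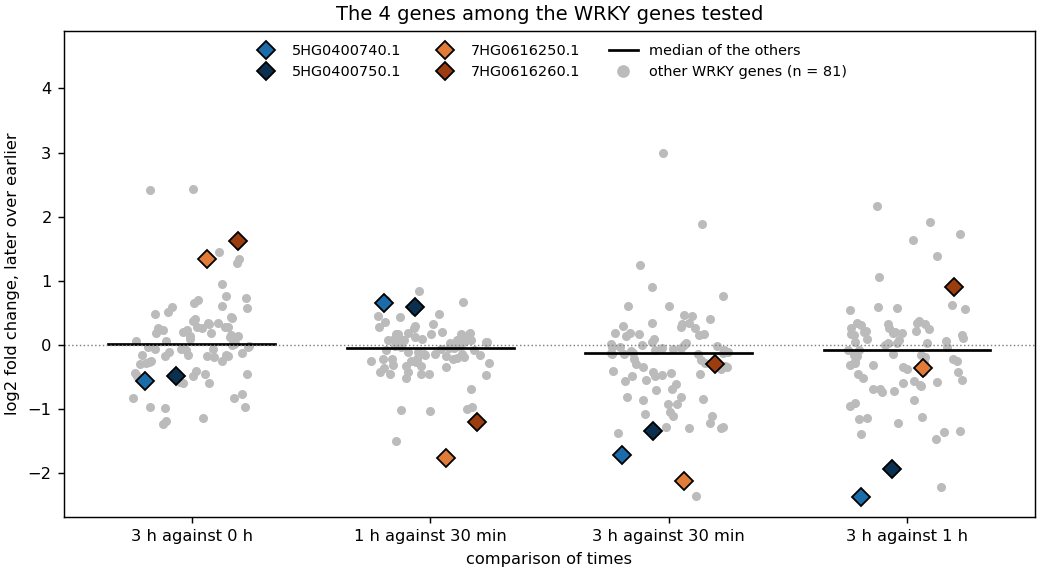
Log2 fold change, later over earlier time (y axis), of 81 other tested WRKY genes (grey, with a line at their median) and the 4 genes (diamonds) in 4 comparisons (x axis). At 3 h against 1 h the 5H genes, at -2.38 and -1.94, rank 1 and 3 from the lowest of the family, and at 1 h against 30 min the 7H genes do, at -1.77 and -1.20. The times before 3 h were used to choose the 4 genes.

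VQ motif proteins are partners of WRKY factors. Of 37 VQ motif genes 26 were tested, and 3 rose at 3 h against 0 h and 3 against 30 min, 1 rose against 1 h, and 0 fell. Of all genes 1.68%, 1.52% and 1.19% rose in these comparisons, and 199, 289 and 221 of 24920 fell. In the fit blocked by replicate number, 819 of all 24920 genes rose against 1 h, and so did 4 VQ motif genes. Of the 3 called at 3 h against 0 h, the highest in CPM was HORVU.MOREX.r2.3HG0202420.1, whose Arabidopsis homolog is VQ motif-containing protein 4. It went from 36.0 ± 7.0 CPM (SD, n = 3) at 0 h to 78.6 ± 15.8 CPM at 3 h, by 1.13 ± 0.18 (SE) on the log2 scale (edgeR adjusted p = 0.00605). The largest log2 fold change of the 3 was 1.66 ± 0.24, in HORVU.MOREX.r2.2HG0090980.1. HORVU.MOREX.r2.2HG0090980.1 rose from 9.84 ± 3.05 to 31.3 ± 1.23 CPM (edgeR adjusted p = 0.00256) and HORVU.MOREX.r2.1HG0062640.1 from 34.8 ± 8.29 to 76.0 ± 5.82 CPM (adjusted p = 0.00991). The median of the 26 at 3 h against 0 h was 0.48 on the log2 scale, and -0.0042 over all genes.

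Of 61 genes described as MAP kinase cascade members 25 were tested and 1 was called, lower at 3 h than at 30 min and 1 h, where 1.16% and 0.887% of all genes fell. Blocked by replicate number, 5 of the 25 fell in each of these comparisons, where 834 and 873 of all 24920 genes fell in that fit. At 3 h against 0 h 2 of the 25 fell in it, and 531 of all genes. HORVU.MOREX.r2.4HG0320920.1, a MAP kinase gene, was at 58.2 ± 4.72, 92.1 ± 23.4, 92.1 ± 5.43 and 56.4 ± 2.43 CPM (SD, n = 3) from 0 h to 3 h. It fell by 0.71 ± 0.16 (SE) on the log2 scale from 30 min to 3 h and from 1 h to 3 h (edgeR adjusted p = 0.0387 and 0.0454). The calls were kept in 2 and 3 of 12 fits without 1 library, and both were lost with the 4 libraries of replicate 1 left out.

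Of 27 JAZ genes 15 were tested, and 15 of 15 stood above 0 h at 30 min, with a median of 2.58 on the log2 scale against -0.01 over all genes. In that comparison 0 passed edgeR and DESeq2 called 7, against 96 of all 24920 genes with DESeq2. From 30 min to 3 h 8 of 15 fell and 0 rose, with a median of -3.19 on the log2 scale against -0.01 over all genes, and from 1 h to 3 h 1 fell. Of all genes 1.16% and 0.887% fell, and 1.52% rose from 30 min to 3 h. Blocked by replicate number, 10 and 4 JAZ genes fell, against 834 and 873 of all 24920 genes. HORVU.MOREX.r2.7HG0555360.1 fell by 5.63 ± 0.74 (SE) from 8.02 ± 3.62 CPM (SD, n = 3) at 30 min to 0.16 ± 0.102 CPM at 3 h (edgeR adjusted p = 0.00166). That 3 h mean is near the level of 3 counts, so the size of the fall is uncertain. HORVU.MOREX.r2.7HG0555340.1 was at 15.3 ± 5.63 CPM, HORVU.MOREX.r2.7HG0555380.1 at 8.19 ± 2.96 CPM and HORVU.MOREX.r2.7HG0555400.1 at 5.12 ± 2.57 CPM at 30 min, and all 3 were under 0.8 CPM at 3 h.

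The genes whose levels over the 12 libraries were most like each member were found by Pearson r on the log2 scale. For 5HG0400740 they were led by an insoluble beta-fructofuranosidase gene, an enzyme that splits sucrose in the cell wall (HORVU.MOREX.r2.2HG0166390.1, r = 0.93). Next came a gene whose Arabidopsis homolog is DOWNY MILDEW RESISTANCE 6, an oxygenase that lowers salicylate (HORVU.MOREX.r2.4HG0343710.1, r = 0.93), with means of 12.4, 30.4, 50.4 and 13.1 CPM from 0 h to 3 h. A receptor kinase gene like wall-associated kinase 2 (HORVU.MOREX.r2.2HG0085340.1) followed at r = 0.91, then HORVU.MOREX.r2.1HG0028090.1 and a lectin-type receptor kinase gene (HORVU.MOREX.r2.5HG0441490.1) at r = 0.90. In all, 161 of 24916 genes had r above 0.8 with this gene.

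For 5HG0400750 the most alike were a DUF247 membrane protein gene (HORVU.MOREX.r2.3HG0269090.1, r = 0.92) and a GATA transcription factor gene (HORVU.MOREX.r2.7HG0594380.1, r = 0.90). HORVU.MOREX.r2.6HG0518850.1 and a glycerophosphodiester phosphodiesterase gene (HORVU.MOREX.r2.1HG0020800.1) also had r = 0.90. A receptor kinase gene (HORVU.MOREX.r2.7HG0558270.1, r = 0.89), with means of 35.2, 50.7, 57.4 and 30.9 CPM, came last of the 5. There were 101 genes with r above 0.8.

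Fewer genes followed the 7H pair, 19 with r above 0.8 for 7HG0616250 and 8 for 7HG0616260. A ribose-5-phosphate isomerase A gene (HORVU.MOREX.r2.5HG0401820.1) was first for the former (r = 0.93) and second for the latter (r = 0.85), at means of 0.106, 1.94, 0.505 and 0.387 CPM from 0 h to 3 h. Its mean at 0 h lies within the 0.0849 to 0.193 CPM that 3 counts correspond to. For 7HG0616250 there followed a transposon gene (HORVU.MOREX.r2.7HG0573940.1, r = 0.92), an alpha/beta-hydrolase gene (HORVU.MOREX.r2.7HG0535230.1, r = 0.88), a methyltransferase gene (HORVU.MOREX.r2.5HG0410590.1, r = 0.87) and a kinase gene whose Arabidopsis homolog is a MAP kinase kinase kinase (HORVU.MOREX.r2.3HG0234560.1, r = 0.85). The last was at 0.338, 4.14, 0.813 and 0.553 CPM.

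For 7HG0616260 the most alike was a gene related to a Mediator subunit, part of the complex that links transcription factors to RNA polymerase II (HORVU.MOREX.r2.2HG0098430.1, r = 0.89). It was followed, after the isomerase gene, by another WRKY gene (HORVU.MOREX.r2.5HG0425110.1, r = 0.84), a GDSL lipase gene (HORVU.MOREX.r2.3HG0201150.1, r = 0.83) and an ATAF2-like NAC gene (HORVU.MOREX.r2.5HG0436060.1, r = 0.82). The lipase gene had a mean of 0.11 CPM at 0 h, near the level of 3 counts. The NAC gene had means of 49.3, 91.6, 68.6 and 100.3 CPM from 0 h to 3 h, high at 30 min and at 3 h as the member was. These correlations rest on 12 libraries that share 4 times and are a description. By Spearman's rho 2, 2, 3 and 2 of the 5 genes were the same for the 4 members in the order of their identifiers, and with the mean of each replicate number taken out 1, 1, 4 and 2.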

How the data were processed

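Per the labels, the 12 libraries were made from poly(A) RNA with a kit that keeps the strand and read as pairs of 150 bases. HISAT2 2.0.5, Subread 1.5.2, SAMtools and bcl2fastq are listed in the submitters' processing notes. The sources used here do not give the build, the strand setting or the handling of reads with several matches. The authors deposited whole-number read counts for 63658 genes. The log2 fold changes and adjusted p-values in the authors' deposited table come from a test not stated there, and are printed only where named as theirs. None of the gene identifiers (0 of 63658) matched the RefSeq gene table, and no sequence of the genes was used here.

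Counts were scaled by TMM and tested with edgeR 4.0.16 (R 4.3.3) by its quasi-likelihood test in 1 model of 4 times, with 8 residual degrees of freedom and a median prior of 3.59. The filter filterByExpr (minimum count 10, minimum total 15) left 24920 genes, and p-values were adjusted by Benjamini-Hochberg over all of them, with calls under 0.05. DESeq2 1.42.0, limma 3.58.1 and other settings were alternatives, and ratios were compared by exact permutation. Log2 CPM used a prior count of 2. The fit was tested on simulated data in which 200 genes were changed.

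The members, gene lists and tests were chosen with earlier results of these data known, so no pattern here is independent support. Named genes are the members, the next 2 genes on each side of a pair, the 5 genes most alike to each member, and called genes of each list (WRKY, VQ motif, MAP kinase and JAZ, by words in the descriptions), at most 4 per list by smallest p. The genes with the same Arabidopsis homolog were added.

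Whether replicate numbers pair the libraries was checked by correlating deviations from the group means. Of 18 same-number pairs 17 had r above 0.1 (0.0958 to 0.674), and pairs of unlike number ran from -0.593 to 0.268. The best match of a library had its own number in 12 of 12 cases. The pair below was in 1 h against 0 h, so the numbers count as pairing in the other 5 comparisons. The pairing comes from this check, since the labels give no shared batch.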

Additional observations from a re-analysis of the deposited data

How the results depend on the processing

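The counts below follow the order 30 min, 1 h and 3 h against 0 h, then 1 h against 30 min, 3 h against 30 min and 3 h against 1 h. Of the 4 genes, 0, 1, 0, 0, 2 and 2 were called in the reported fit, 3, 2, 1, 0, 3 and 2 by DESeq2, 0, 1, 1, 0, 2 and 2 without the filter, 0, 1, 0, 0, 1 and 2 in fits of the times compared alone, and 0, 0, 0, 0, 2 and 2 with the 4 libraries of replicate 1 left out. Size factors of DESeq2 in edgeR and limma-voom gave the reported counts. With the replicate number as a block the counts were 0, 2, 1, 0, 3 and 2; the calls gained are 5HG0400750 at 1 h against 0 h and the 7H calls given with the results, and no other call of a member changed. Of all genes, 1, 24, 617, 0, 667 and 518 were called in the reported fit, 96, 121, 1112, 23, 1368 and 1329 by DESeq2, 2, 33, 634, 0, 683 and 559 without the filter, 3, 66, 1269, 0, 1584 and 1692 with the block, 1, 8, 377, 0, 318 and 376 in fits of the times compared alone, and 0, 1, 506, 0, 570 and 378 without replicate 1. The causes were not tested.

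Leaving out 1 library gave 0 to 3, 3 to 27, 374 to 627, 0, 353 to 671 and 221 to 532 calls over all genes. The lowest count of the first comparison (0) was reached in 4 fits, each lacking 1 library (0 h replicate 1 or 2, 30 min replicate 1 or 3). That of the second (3) was reached in 2, each lacking 1 library (1 h replicate 1 or 3). The others came without replicate 3 of 3 h (374), replicate 2 of 30 min (353) and replicate 2 of 1 h (221). Of the members, 0 to 1 were then called at 3 h against 0 h and 1 to 2 at 3 h against 30 min. Estimates that changed sign were small. 7HG0616250 at 3 h against 1 h spanned -0.666 to 0.0677. 5HG0400720 spanned -0.0178 to 0.609 at 30 min against 0 h and -0.00622 to 0.346 at 1 h against 30 min, and HORVU.MOREX.r2.6HG0471210.1 spanned -0.698 to 0.0701 at 1 h against 30 min. The order of the times was the same without TMM in 4 of 4 genes. Depth limits 7HG0616250 most, with 7 to 29 counts per library at 0 h.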
